A study of Danio rerio with 40 samples.

Results

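The genes described here encode receptors for GABA, glycine and glutamate. They are those of the count table whose names begin with gabr, glra, gria or grik or with the grin, grid and grm prefixes of the numbered NMDA, delta and metabotropic receptor genes, and whose mean over the 10 larval libraries was at least 0.5 CPM (a gene's counts relative to the total of its library, on a common scale). The name pattern matched 67 of 32520 genes, and all 67 passed the level, the lowest at 1.57 CPM (gabrr2b). Of these, 65 encode receptor subunits: 21 GABA-A, 5 glycine and 39 glutamate receptor genes (8 AMPA, 4 kainate, 12 NMDA, 3 delta and 12 metabotropic). The other 2 encode proteins that are not receptors and were left out of all counts. The pattern does not reach the metabotropic GABA-B receptors or the glycine receptor beta subunits. All 65 receptor genes had enough counts to be tested, and the smallest count of any of them in any library was 28.

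Fast synaptic signalling in the brain, spinal cord and retina runs through receptors for GABA, glycine and glutamate. GABA-A and glycine receptors are chloride channels assembled from subunits, and in mature neurons their opening mostly inhibits the cell. Ionotropic glutamate receptors (AMPA, kainate, NMDA) are cation channels and mostly excite it, the related delta receptors act largely as synaptic organisers, and metabotropic glutamate receptors signal through G proteins. Which subunit genes a neuron expresses sets the kinetics, agonist affinity and location of its receptors. Zebrafish carry a pair of copies, named a and b, of many of these genes.

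The larvae were quadruple knockouts (qKO; smad3a-/-, smad3b-/-, smad6a-/-, smad6b-/-), set against wild-type control cousins. Both were raised at 27°C to 5 days post fertilization, and each genotype gave 5 pools of 5 whole fish. Among the proteins of the TGF-beta and BMP pathways, Smad3 passes a signal on from its receptor and Smad6 is an inhibitor. The study concerns smad6-related aortic disease. Not analysed here were the other 30 samples of the series, which are adult aortas or belong to the comparisons of the double knockouts. The labels do not describe the mutations themselves.

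Totals ranged from 20752303 to 191289475 counts in qKO libraries and from 16062147 to 110409906 counts in control libraries. Transcripts of smad3a stood at 11.0 ± 1.71 CPM in qKO larvae and 41.2 ± 3.48 CPM in controls, and those of smad3b at 6.52 ± 0.495 and 13.9 ± 0.487 CPM (SD, n = 5 each). Levels of smad6a and smad6b were higher in qKO larvae (log2 fold changes 0.36 and 0.62), so for these genes the genotype rests on the labels alone. The pools of each genotype fall into 2 sets, pools 1 and 2 and pools 3 to 5, whose origin the labels do not give. The clock gene nr1d1 shows the sets plainly, at 334 and 352 CPM in qKO pools 1 and 2 and 1.59 to 2.62 CPM in qKO pools 3 to 5, against 8.94 and 8.45 CPM in control pools 1 and 2 and 42.1 to 48.0 CPM in control pools 3 to 5. The genes that carry the results are therefore also given within each set. The sets of the 2 genotypes are matched by number alone, and their nr1d1 levels did not match. The log2 fold change of nr1d1 was 5.31 within pools 1 and 2 and -4.43 within pools 3 to 5. Within a set, the effect of genotype therefore cannot be told apart from a difference in origin or state between the pools. The labels call the pools biological replicates without saying whether they came from separate clutches, so p-values measure the spread between these pools.

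Whole larvae contain all tissues, so fewer neurons and less RNA per neuron cannot be told apart. The 22 pan-neuronal genes summed to between 4002 and 4306 CPM in qKO pools and between 3463 and 3924 CPM in control pools, without overlap. Of all tested genes 25.8% were called between the genotypes, 13.4% higher and 12.5% lower, against which the counts of these lists stand. Of the 22 pan-neuronal genes 7 rose and 0 fell by edgeR (1 lower at an unadjusted p under 0.05), with a median log2 fold change of 0.16; DESeq2 called 1 lower and limma-voom 0. The 20 genes of retinal photoreceptors, bipolar cells and ganglion cells summed to 5236 to 8389 CPM in qKO pools and 8592 to 12477 CPM in controls, with 11 genes lower, 0 higher (1 at an unadjusted p under 0.05) and a median of -0.52. DESeq2 and limma-voom gave the same 2 counts. The sums of the 15 glial genes overlapped between genotypes (2142 to 2738 CPM in qKO pools, 2163 to 2695 CPM in control pools), with 3 genes higher and 3 lower. DESeq2 called 3 glial genes higher and 5 lower, and limma-voom 3 higher and 3 lower. Taken singly, 5 glial genes did not overlap between genotypes (18% of all tested genes did not), 2 higher and 3 lower. The sum therefore joins genes that went opposite ways. The 13 skeletal muscle genes summed to 53819 to 71278 CPM in qKO pools and 66979 to 81694 CPM in control pools. By edgeR 1 was higher and 3 were lower, against 1 and 6 by DESeq2 and 1 and 3 by limma-voom. The 11 genes of neural progenitors and proliferation gave 2 higher and 0 lower by edgeR, DESeq2 and limma-voom alike (0 lower also at an unadjusted p under 0.05). The part of these lists in the receptor results was not tested.

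Few receptor genes differed between the genotypes, and the differences were small. Of the 65 genes, 10 passed an adjusted p of 0.05 (15.4%; quasi-likelihood test of edgeR, adjusted after Benjamini and Hochberg over all 22894 tested genes), against 25.8% of all tested genes. Of the 10, 6 were higher (13.4% of all tested genes were) and 4 were lower (12.5%). The rises were gabrr3a, glra4a, grik1b, grik5, grin2cb and grm6b, and the falls were gabra6b, gabrd, gabrb2a and grin1a. The median absolute log2 fold change was 0.13 over the receptor genes and 0.22 over all tested genes. None of the 65 changed by 1 or more on the log2 scale over all pools, which 5.64% of all tested genes did. These values average over 2 pool sets, in which 42 of the 65 genes (64.6%) had opposite signs, against 40.8% of all. Within single sets some changes were larger, such as gabrr1 (-1.71) and gabrr3a (1.41) within pools 3 to 5. Within pools 1 and 2 grm1b changed by -1.12. Levels did not overlap between the genotypes for 4 receptor genes against 18% of all tested genes, with 2 higher (9.2% of all) and 2 lower (8.75%). With the pool sets summed to 2 samples a genotype, edgeR called 0 receptor genes, against only 2.85% of all 24580 genes tested there. At an unadjusted p under 0.05 edgeR had 3 receptor genes, against 15.9% of all. DESeq2 called 1 receptor gene (gabra6b) and limma-voom 0, against 1260 and 836 of the 24580 genes.

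**Figure D1:**
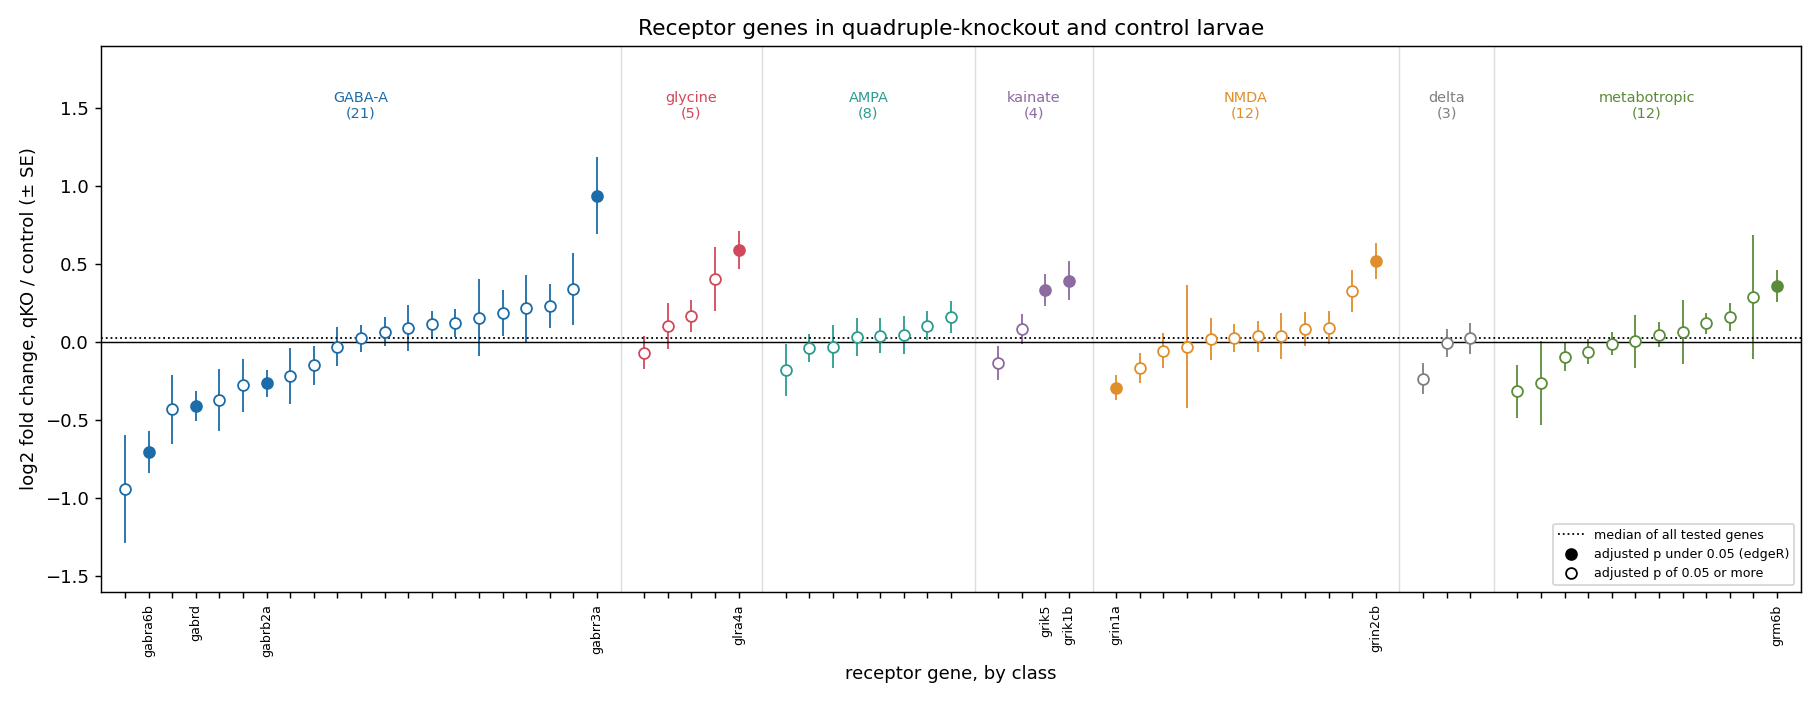
Log2 fold change of qKO over control larvae (vertical axis, with SE) for each of the 65 receptor genes, arranged by class along the horizontal axis, with the called genes named. Filled points passed an adjusted p of 0.05 (edgeR), open points did not, and the dotted line is the median of all 22894 tested genes. The 10 filled points lie between -0.71 (gabra6b) and 0.94 (gabrr3a), and no AMPA or delta gene is filled.

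GABA-A receptor genes were divided. Of 21 genes 4 were called (19%, against 25.8% of all tested genes), with 3 lower (12.5% of all) and 1 higher (13.4%). Of the 21, 11 had a log2 fold change above 0 and 10 below it. The median was 0.03, like that of all tested genes (0.03). With upper-quartile scaling it was -0.01, again like that of all tested genes (-0.01). Summed over the class, levels were 279, 237, 233, 233 and 273 CPM in qKO pools 1 to 5 and 267, 288, 238, 276 and 249 CPM in control pools 1 to 5, so the genotypes overlapped.

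The 3 GABA-A genes that fell encode an alpha 6, a delta and a beta 2 subunit. In mammals the alpha 6 and delta subunits are found together in extrasynaptic receptors of cerebellar granule cells, which carry a lasting (tonic) inhibitory current. Levels of gabra6b (ENSDARG00000058736) were 5.14, 3.48, 3.32, 3.63 and 3.50 CPM in qKO pools 1 to 5, against 6.22, 6.85, 6.60, 5.51 and 5.69 CPM in control pools. Every qKO pool lay below every control pool, and qKO pool 1 lay nearest to them. This was a log2 fold change of -0.71 (SE 0.14, edgeR adjusted p = 0.00276), with -0.64 within pools 1 and 2 (edgeR adjusted p = 0.044) and -0.81 within pools 3 to 5 (edgeR adjusted p = 0.000614). Its copy gabra6a stood at 12.4 ± 3.47 CPM in qKO larvae and 15.0 ± 1.76 CPM in controls (SD, n = 5 each), a difference that did not pass (log2 fold change -0.28, edgeR adjusted p = 0.257). In qKO pools 3 and 4 gabra6a was at 8.48 and 8.90 CPM, below every control, and the other 3 qKO pools lay within the controls.

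Levels of gabrd (ENSDARG00000059763) were 19.7, 19.0, 16.9, 13.6 and 16.3 CPM in qKO pools 1 to 5, against 22.9, 22.5, 22.3, 24.4 and 21.5 CPM in control pools. The groups did not overlap, and the gap was wider in pools 3 to 5. On the log2 scale gabrd changed by -0.41 (SE 0.10, edgeR adjusted p = 0.00887), at -0.23 within pools 1 and 2 (edgeR adjusted p = 0.178) and -0.57 within pools 3 to 5 (edgeR adjusted p = 0.00108). The difference between the sets was not itself tested, here or for the other genes.

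Levels of gabrb2a (ENSDARG00000079586) were 31.0, 26.5, 29.0, 26.6 and 25.9 CPM in qKO pools and 33.2, 34.4, 27.8, 37.7 and 33.9 CPM in control pools. Here 3 qKO pools lay below every control, and control pool 3 lay among the qKO pools. The fall of 0.26 on the log2 scale (SE 0.09, edgeR adjusted p = 0.0409) was lost when any 1 of qKO pools 2 to 5 or control pools 2, 4 and 5 was left out (edgeR adjusted p up to 0.111). It was also lost with library totals in place of TMM and with all libraries thinned to the smallest total. A block for the replicate number lost it too. The log2 fold change was -0.24 within pools 1 and 2 (edgeR adjusted p = 0.139) and -0.32 within pools 3 to 5 (edgeR adjusted p = 0.0361).

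**Figure D2:**
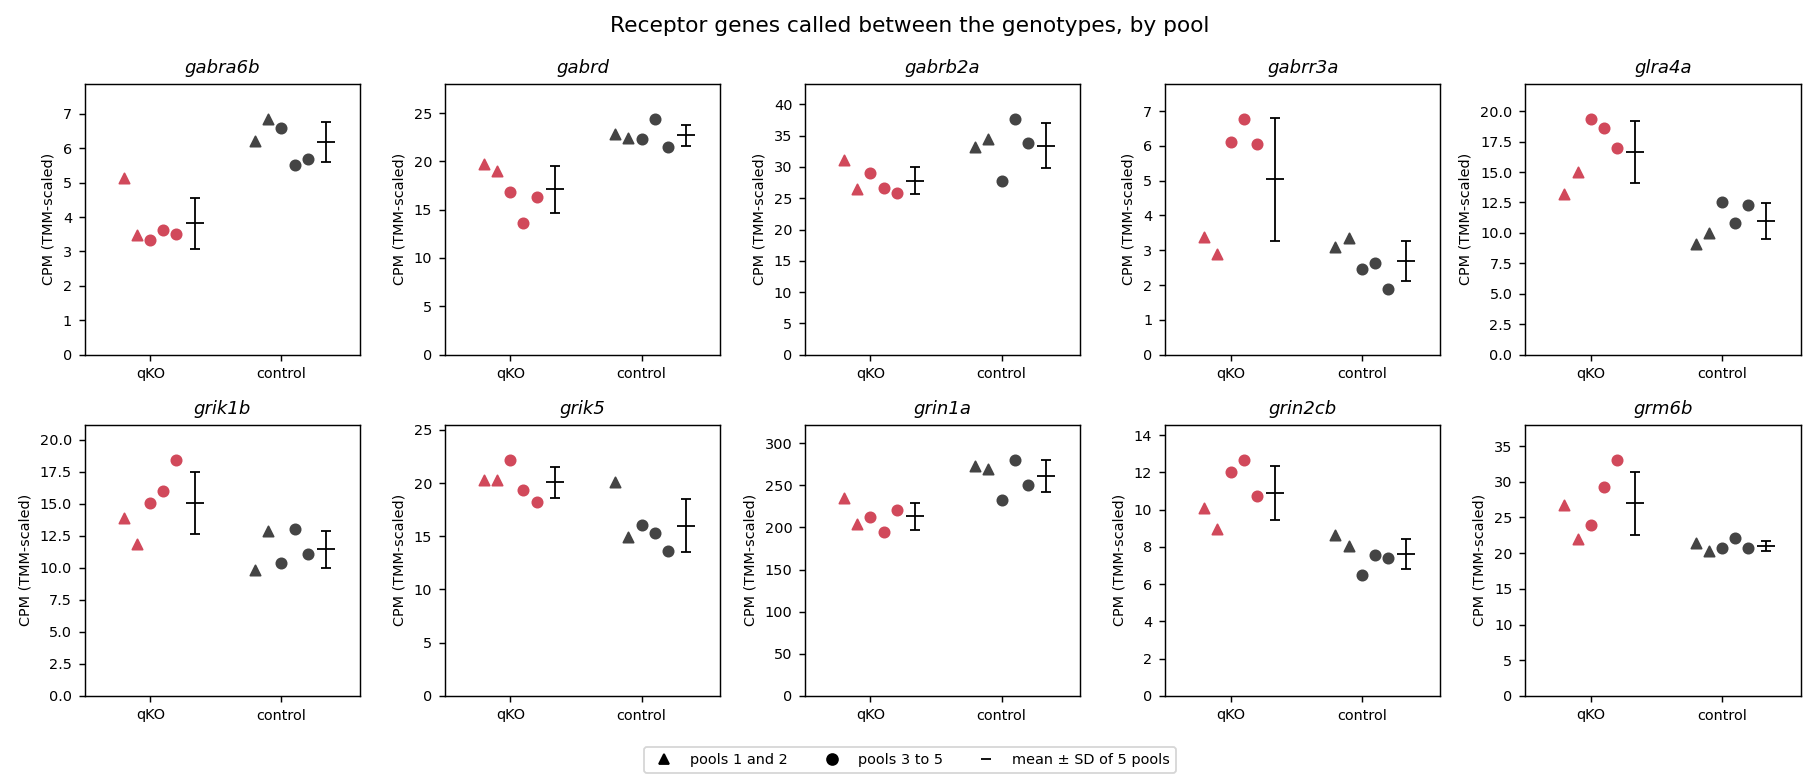
Level in CPM scaled by TMM (vertical axis) of the 10 receptor genes that passed an adjusted p of 0.05, in each pool of qKO larvae (red, left) and control larvae (grey, right). Triangles are pools 1 and 2, circles are pools 3 to 5, and the bar is the mean ± SD of 5 pools. The genotypes do not overlap for gabra6b, gabrd, glra4a and grin2cb, and for gabrr3a qKO pools 1 and 2 (3.39 and 2.90 CPM) lie near the controls.

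The rho subunits form GABA-gated channels known best from retinal bipolar cells, and their 5 genes had differences of both signs. Levels of gabrr3a (ENSDARG00000027153) were 3.39, 2.90, 6.11, 6.77 and 6.05 CPM in qKO pools 1 to 5, against 3.08, 3.36, 2.45, 2.64 and 1.89 CPM in control pools. In qKO pool 1 gabrr3a was just above the highest control, in qKO pool 2 it was among the controls, and the other qKO pools lay well above. The rise (log2 fold change 0.94, SE 0.25, edgeR adjusted p = 0.0142) lay in pools 3 to 5, at 1.41 (edgeR adjusted p = 6.52e-05), with -0.06 within pools 1 and 2 (edgeR adjusted p = 0.889). For the copy gabrr3b the log2 fold change was 0.23 (edgeR adjusted p = 0.245), with -0.13 within pools 1 and 2 (edgeR adjusted p = 0.681) and 0.40 within pools 3 to 5 (edgeR adjusted p = 0.0471).

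Levels of gabrr1 (ENSDARG00000043902) were 10.2, 7.48, 2.60, 2.83 and 5.68 CPM in qKO pools and 8.57, 8.58, 12.5, 13.9 and 11.2 CPM in control pools. In 4 qKO pools it was below every control, and qKO pool 1 was not. The log2 fold change of -0.94 did not pass (SE 0.34, edgeR adjusted p = 0.0671), but within pools 3 to 5 gabrr1 was lower, at -1.71 (edgeR adjusted p = 0.00424), with 0.03 within pools 1 and 2 (edgeR adjusted p = 0.934). Of the 65 genes, this was the largest difference in size within pools 3 to 5. Its neighbour in the reference gene order, gabrr2b, had -0.37 (edgeR adjusted p = 0.185), and gabrr2a had -0.21 (edgeR adjusted p = 0.407). The median log2 fold change of the retinal list, all its cell types together, was -0.84 within pools 3 to 5 and -0.16 within pools 1 and 2. Within pools 3 to 5 gabrr2a and gabrr2b were also below 0 but did not pass (-0.48 and -0.56, edgeR adjusted p = 0.0716 and 0.0673). There gabrr3a and gabrr3b went the other way (1.41 and 0.40). The part of retinal tissue in the rho results was not tested.

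Several GABA-A genes lie beside one another in the reference gene order. The fallen gabrb2a neighbours gabra6a, which was not called. The neighbours gabra2a, gabrg1 and gabrb1, which encode an alpha 2, a gamma 1 and a beta 1 subunit, had log2 fold changes of 0.07, 0.22 and -0.03 (edgeR adjusted p = 0.63, 0.484 and 0.886). Within pools 3 to 5 gabrg1 was higher, at 0.63 (edgeR adjusted p = 0.00537), with -0.44 within pools 1 and 2 (edgeR adjusted p = 0.192). The neighbours gabrb4 and gabra3 had 0.34 and 0.16 (edgeR adjusted p = 0.299 and 0.673), and gabrb4 was higher within pools 3 to 5, at 0.80 (edgeR adjusted p = 0.00194), with -0.32 within pools 1 and 2 (edgeR adjusted p = 0.287).

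Glycine receptors carry much of the fast inhibition of the spinal cord and hindbrain, and their alpha subunits bind the transmitter. Of the 5 alpha subunit genes 1 was called, glra4a, which rose (25.8% of all tested genes were called, 13.4% higher). Their median log2 fold change was 0.17, above 0 for 4 genes. Summed levels were 110, 99.8, 104, 105 and 106 CPM in qKO pools 1 to 5 and 105, 109, 78.9, 90.8 and 84.9 CPM in control pools 1 to 5, so the qKO pools lay close together and controls 3 to 5 lay below all of them.

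Levels of glra4a (ENSDARG00000006865) were 13.2, 15.0, 19.4, 18.6 and 16.9 CPM in qKO pools 1 to 5, against 9.12, 9.97, 12.6, 10.8 and 12.3 CPM in control pools. Every qKO pool lay above every control pool, and in both genotypes pools 1 and 2 were the lowest. The rise was 0.59 on the log2 scale (SE 0.12, edgeR adjusted p = 0.00403), with close values within pools 1 and 2 (0.56, edgeR adjusted p = 0.0132) and within pools 3 to 5 (0.58, edgeR adjusted p = 0.000768). With the pool sets summed the edgeR adjusted p was 0.21.

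Levels of the copy glra4b (ENSDARG00000058103) were 3.43, 4.40, 7.42, 7.48 and 7.59 CPM in qKO pools, against 4.13, 5.46, 4.46, 4.38 and 4.60 CPM in control pools. Here qKO pools 3 to 5 lay above every control, and qKO pool 1 lay below every one. The log2 fold change of 0.40 did not pass (SE 0.20, edgeR adjusted p = 0.163), with 0.70 within pools 3 to 5 (edgeR adjusted p = 0.00052) and -0.29 within pools 1 and 2 (edgeR adjusted p = 0.369).

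Levels of glra1, the glycine receptor gene with the highest mean CPM, were 68.8, 59.6, 58.8, 59.4 and 59.3 CPM in qKO pools, against 72.6, 72.8, 41.4, 52.4 and 46.3 CPM in control pools. Control pools 1 and 2 were above every qKO pool and control pools 3 to 5 below every one, and the log2 fold change was 0.10 (SE 0.15, edgeR adjusted p = 0.639). It was -0.18 within pools 1 and 2 (edgeR adjusted p = 0.198), and within pools 3 to 5 glra1 was higher, at 0.30 (edgeR adjusted p = 0.0193). Levels of glra2 were 6.27 ± 0.428 CPM in qKO larvae and 5.56 ± 0.504 CPM in controls (log2 fold change 0.17, edgeR adjusted p = 0.245). Levels of glra3 were 14.9 ± 2.27 and 15.5 ± 1.04 CPM in qKO and control larvae (log2 fold change -0.07, edgeR adjusted p = 0.674; SD, n = 5 each).

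**Figure D3:**
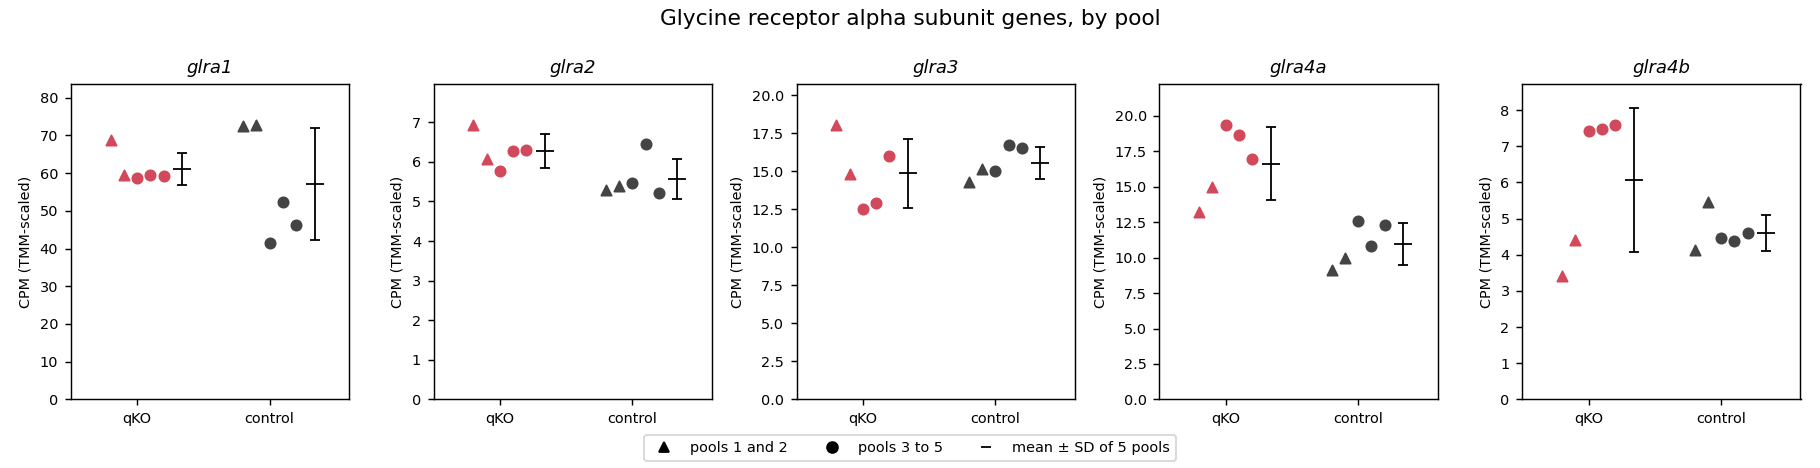
Level in CPM scaled by TMM (vertical axis) of the 5 glycine receptor alpha subunit genes in each pool of qKO larvae (red, left) and control larvae (grey, right). Triangles are pools 1 and 2, circles are pools 3 to 5, and the bar is the mean ± SD of 5 pools. For glra4a all qKO pools (13.2 to 19.4 CPM) lie above all control pools (9.12 to 12.6 CPM), and for glra4b qKO pools 3 to 5 alone do.

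Glutamate receptor genes were called in 5 of 39 cases (12.8%, against 25.8% of all tested genes), 4 higher (13.4% of all) and 1 lower (12.5%). Their median log2 fold change was 0.03, or -0.01 with upper-quartile scaling, against 0.03 and -0.01 for all tested genes. Summed levels were 1578, 1358, 1478, 1435 and 1581 CPM in qKO pools 1 to 5 and 1665, 1666, 1328, 1612 and 1422 CPM in control pools 1 to 5, which overlapped.

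**Figure D4:**
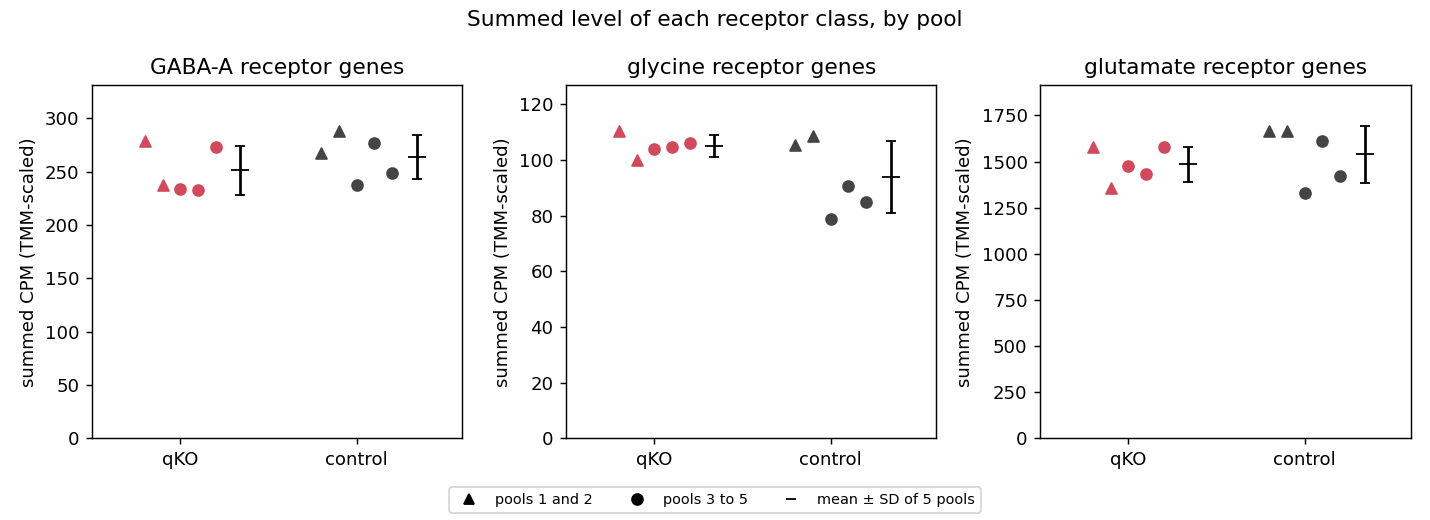
Summed level in CPM scaled by TMM (vertical axis) of the 21 GABA-A, 5 glycine and 39 glutamate receptor genes in each pool of qKO larvae (red, left) and control larvae (grey, right). Triangles are pools 1 and 2, circles are pools 3 to 5, and the bar is the mean ± SD of 5 pools. The genotypes overlap in all 3 classes, and glycine receptor genes in control pools 3 to 5 (78.9 to 90.8 CPM) lie below every qKO pool.

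AMPA receptors carry most fast excitation, and 0 of their 8 genes were called between the genotypes by edgeR, DESeq2 or limma-voom (0 also at an unadjusted p under 0.05 in each). Among all tested genes edgeR called 25.8%. Their log2 fold changes ran from -0.18 (gria1b) to 0.16 (gria4b), with a median of 0.04. The GluA2 subunit, which in mammals sets the calcium permeability of the channel, is encoded by gria2a and gria2b, the AMPA genes with the highest mean CPM. Levels of gria2a were 103 ± 8.54 CPM in qKO larvae and 96.0 ± 11.7 CPM in controls (log2 fold change 0.11, SE 0.09, edgeR adjusted p = 0.428). Those of gria2b were 87.6 ± 6.28 and 89.7 ± 10.4 CPM in qKO and control larvae (log2 fold change -0.03, SE 0.09, edgeR adjusted p = 0.806; SD, n = 5 each).

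Of the 4 kainate receptor genes 2 rose, as 13.4% of all tested genes did. The GluK1 gene grik1b (ENSDARG00000040627) stood at 13.9, 11.9, 15.1, 16.0 and 18.4 CPM in qKO pools, against 9.86, 12.9, 10.4, 13.0 and 11.1 CPM in control pools. All but qKO pool 2 lay above every control (log2 fold change 0.39, SE 0.12, edgeR adjusted p = 0.032), with 0.15 within pools 1 and 2 and 0.49 within pools 3 to 5 (edgeR adjusted p = 0.525 and 0.00589). For its copy grik1a the log2 fold change was -0.13 (edgeR adjusted p = 0.389). The gene grik5 (ENSDARG00000101449) encodes GluK5, which in mammals forms working channels only together with GluK1 to GluK3 subunits. It stood at 20.2, 20.2, 22.1, 19.4 and 18.3 CPM in qKO pools, against 20.1, 14.9, 16.1, 15.3 and 13.6 CPM in control pools. Control pool 1 alone reached the qKO levels (log2 fold change 0.33, SE 0.10, edgeR adjusted p = 0.0307), with 0.22 within pools 1 and 2 and 0.37 within pools 3 to 5 (edgeR adjusted p = 0.285 and 0.0117). The call of grik1b was lost with upper-quartile scaling and with the replicate number as a block. It was lost without any 1 of qKO pools 3 to 5 or control pools 1, 3 and 5 (edgeR adjusted p up to 0.109). That of grik5 was lost with thinned libraries. The grik5 call was lost without any 1 of qKO pools 3 and 4 or control pools 2 to 5 (edgeR adjusted p up to 0.0898).

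NMDA receptors require the GluN1 subunit, encoded here by grin1a and grin1b, which had the highest mean CPM of the 65 genes. Levels of grin1a (ENSDARG00000027828) were 235, 204, 212, 194 and 221 CPM in qKO pools 1 to 5, against 273, 269, 232, 280 and 251 CPM in control pools. In 4 qKO pools it lay below every control, and qKO pool 1 lay just above control pool 3. It fell by 0.29 on the log2 scale (SE 0.08, edgeR adjusted p = 0.018), with -0.31 within pools 1 and 2 (edgeR adjusted p = 0.0401) and -0.32 within pools 3 to 5 (edgeR adjusted p = 0.016). The call was lost without control pool 4 (edgeR adjusted p = 0.051) and with library totals as the scaling. It was also lost with the replicate number as a block. Levels of grin1b were 324 ± 33.5 CPM in qKO larvae and 364 ± 36.1 CPM in controls (SD, n = 5 each), and its log2 fold change of -0.17 did not pass (SE 0.10, edgeR adjusted p = 0.222).

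The GluN2 subunits set the kinetics of NMDA receptors, and 1 of their genes was called (25.8% of all tested genes were). Levels of grin2cb (ENSDARG00000077560), which encodes a GluN2C subunit, were 10.1, 8.98, 12.01, 12.7 and 10.7 CPM in qKO pools, against 8.63, 8.04, 6.48, 7.56 and 7.43 CPM in control pools. Every qKO pool lay above every control, by little in pool 2. Its rise was 0.52 on the log2 scale (SE 0.11, edgeR adjusted p = 0.00579), at 0.67 within pools 3 to 5 (edgeR adjusted p = 0.000807) and 0.19 within pools 1 and 2 (edgeR adjusted p = 0.417). For its copy grin2ca the log2 fold change was 0.04 (edgeR adjusted p = 0.808).

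The GluN2D gene grin2db was the 1 receptor gene called in opposite directions in the 2 sets, as 2.48% of all genes tested in both sets were. Its levels were 7.45, 4.96, 5.00, 5.44 and 8.59 CPM in qKO pools 1 to 5, against 10.4, 11.8, 4.27, 3.94 and 2.80 CPM in control pools 1 to 5. The qKO pools stayed within the range of the controls, whose own 2 sets lay far apart. The log2 fold change was -0.88 within pools 1 and 2 (edgeR adjusted p = 0.00535) and 0.80 within pools 3 to 5 (edgeR adjusted p = 0.0227), and over all pools it was -0.03 (SE 0.39, edgeR adjusted p = 0.967).

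Of the 3 delta receptor genes 0 were called by edgeR, DESeq2 or limma-voom (at an unadjusted p under 0.05, 1 by edgeR, 1 by DESeq2 and 0 by limma-voom). Among all tested genes edgeR called 25.8%. Levels of grid1a were 11.6 ± 0.682 CPM in qKO larvae and 11.4 ± 1.49 CPM in controls (log2 fold change 0.03, SE 0.10, edgeR adjusted p = 0.872). Those of grid1b were 8.13 ± 0.537 CPM in qKO larvae and 9.60 ± 1.03 CPM in controls (SD, n = 5 each), and 4 qKO pools lay below every control. Its log2 fold change of -0.23 did not pass (SE 0.10, edgeR adjusted p = 0.0977).

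Of the 12 metabotropic receptor genes 1, grm6b, passed the test (25.8% of all tested genes did). It encodes mGluR6, the glutamate receptor of retinal ON bipolar cells. Levels of grm6b (ENSDARG00000025671) were 26.8, 21.9, 23.9, 29.2 and 33.0 CPM in qKO pools, against 21.4, 20.4, 20.7, 22.1 and 20.7 CPM in control pools. All but qKO pool 2 lay above every control, and the controls lay close together. Its log2 fold change was 0.36 (SE 0.10, edgeR adjusted p = 0.0217), so grm6b was higher while the 20 retinal genes summed lower. It was 0.21 within pools 1 and 2 (edgeR adjusted p = 0.246) and 0.41 within pools 3 to 5 (edgeR adjusted p = 0.0138). The call was lost without any 1 of qKO pools 4 and 5 or control pools 1 and 5 (edgeR adjusted p up to 0.074). For the copy grm6a the log2 fold change was 0.07 (SE 0.20, edgeR adjusted p = 0.837). The metabotropic gene with the highest mean CPM, grm2b, had -0.06 (edgeR adjusted p = 0.605).

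The sign of the difference between qKO and control pools often turned between the pool sets. As the sets are matched by number alone, such turns cannot be told apart from differences between the pools other than genotype. Of the 65 receptor genes 42 (64.6%) had log2 fold changes of opposite sign in the 2 sets, against 40.8% of all genes tested in both. In 31 of the 42 the qKO level was lower within pools 1 and 2 and higher within pools 3 to 5. The share of all tested genes that turned in this direction was not counted. Within pools 1 and 2, 9 receptor genes were called (21.4% of all tested genes were), 1 higher (11.2%) and 8 lower (10.3%), and the median was -0.15. Within pools 3 to 5, 24 were called (41.3% of all tested genes were), 18 higher (20.1%) and 6 lower (21.3%), and the median was 0.08. With library totals as the scaling within pools 3 to 5, the receptor genes below 0 numbered 11 in place of 23, and the median of all genes was 0.209. Below the median of all genes lay 23 receptor genes, with library totals as with TMM. The genes called in both sets were gabra6b, glra4a, grin1a and grin2db, and the first 3 had the same direction in both, as 9.28% of all genes tested in both sets had.

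**Figure D5:**
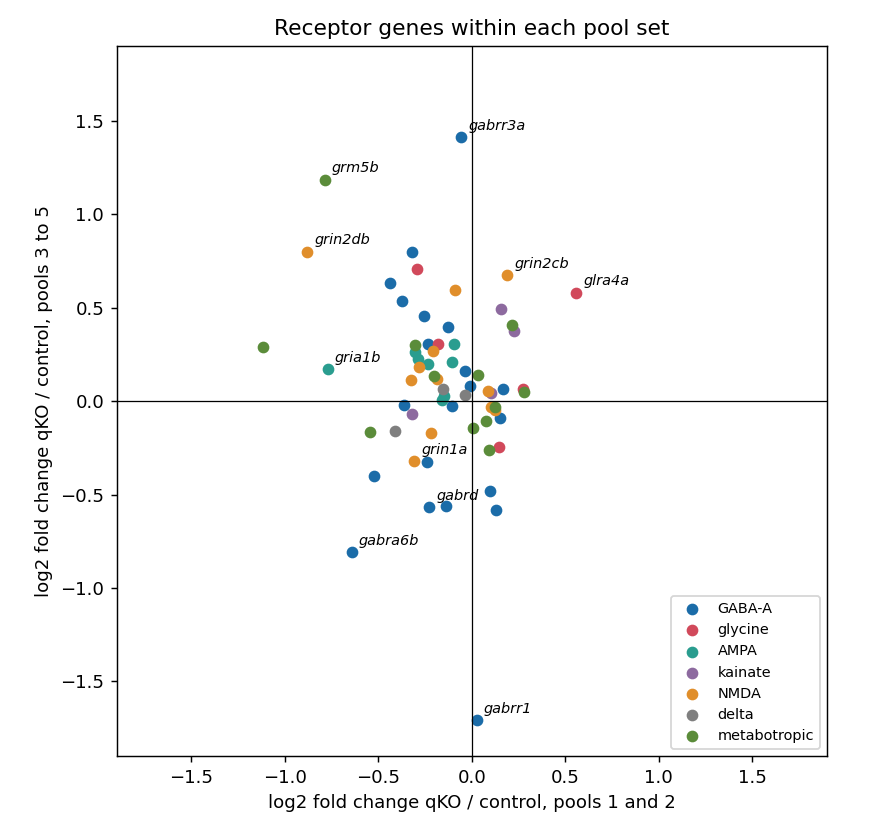
Log2 fold change of qKO over control within pools 1 and 2 (horizontal axis) and within pools 3 to 5 (vertical axis) for the 65 receptor genes, coloured by class. Upper left holds the 31 genes below 0 in pools 1 and 2 and above 0 in pools 3 to 5, among them all 8 AMPA genes. The genes glra4a (0.56 and 0.58) and gabra6b (-0.64 and -0.81) lie on the same side of 0 in both sets.

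All 8 AMPA genes had log2 fold changes below 0 within pools 1 and 2 and above 0 within pools 3 to 5, under each of 4 scalings. How many of all tested genes turned the same way was not counted. Only gria1a (-0.30) and gria1b (-0.77) were called in the first set and gria4b (0.30) in the second. Levels of gria1b were 11.0, 9.56, 13.8, 13.9 and 13.6 CPM in qKO pools 1 to 5 and 16.8, 18.1, 9.73, 14.4 and 11.6 CPM in control pools 1 to 5. Summed AMPA levels were 484, 413, 471, 467 and 506 CPM in qKO pools and 502, 525, 373, 470 and 401 CPM in control pools.

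The sets also differed within each genotype, and in controls mostly one way. In 29 of the 65 genes both control pools 1 and 2 were above each of control pools 3 to 5 (26% of all tested genes), and in 4 both were below (26.9%). Those 29 included 7 of 8 AMPA, 6 of 12 NMDA, 5 of 12 metabotropic and 9 of 21 GABA-A genes, and 0 of 4 kainate genes. Those lower in control pools 1 and 2 included gabrr1, gabra6a and glra4a. Among qKO pools the counts were 12 above (20.2%) and 14 below (21.1%), so the 2 counts were close. These counts were made after the sets were known and compare pools of 1 genotype with each other.

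The genes of transmitter synthesis, transport and anchoring were tested as a further set of lists. Of 32 GABA and glycine synapse genes 12 were called, 6 higher and 6 lower (25.8% of all tested genes were called, 13.4% higher and 12.5% lower), with a median log2 fold change of 0.01. The vesicular transporter gene slc32a1, which loads GABA and glycine into vesicles, stood at 129 ± 9.34 CPM in qKO larvae and 97.0 ± 6.89 CPM in controls (log2 fold change 0.41, SE 0.08, edgeR adjusted p = 0.00223). The glycine receptor beta subunit gene glrba, whose protein ties the receptor to gephyrin, stood at 9.11 ± 0.932 and 12.4 ± 0.524 CPM in qKO and control larvae (log2 fold change -0.45, SE 0.09, edgeR adjusted p = 0.0033). The other beta subunit gene, glrbb, stood at 61.7 ± 4.04 and 62.1 ± 6.68 CPM in qKO and control larvae (log2 fold change -0.01, SE 0.08, edgeR adjusted p = 0.93; SD, n = 5 each). The GABA transaminase gene abat, whose enzyme degrades GABA, stood at 222 ± 52.3 and 348 ± 17.2 CPM in qKO and control larvae (log2 fold change -0.65, SE 0.14, edgeR adjusted p = 0.00447). Within pools 1 and 2 slc32a1, glrba and abat changed by 0.52, -0.26 and -0.39 (log2, edgeR adjusted p = 0.00149, 0.211 and 0.0114). Within pools 3 to 5 they changed by 0.30, -0.61 and -0.90 (log2, edgeR adjusted p = 0.0161, 0.000537 and 6.22e-05). For slc32a1, glrba and abat, named for the lowest p of the list, the 5 pools of each genotype did not overlap. Of the 32 genes 7 did not overlap (18% of all tested genes), 2 higher (9.2%) and 5 lower (8.75%).

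Of 58 glutamate synapse genes 12 were called, 5 higher and 7 lower (against 25.8% of all tested genes), with a median of -0.02. The postsynaptic adhesion gene nlgn3b stood at 67.5 ± 2.49 CPM in qKO larvae and 52.0 ± 2.52 CPM in controls (log2 fold change 0.38, edgeR adjusted p = 0.00112). The glutamate transporter gene slc1a3a stood at 28.2 ± 3.02 and 40.1 ± 3.54 CPM in qKO and control larvae (log2 fold change -0.51, edgeR adjusted p = 0.00141). Its copy slc1a3b, counted in the glial list, went the other way and rose, at 57.6 ± 5.96 and 39.9 ± 0.155 CPM in qKO and control larvae (log2 fold change 0.53, edgeR adjusted p = 0.000422; SD, n = 5 each). Another transporter gene, slc1a7a, stood at 8.10 ± 3.08 and 3.41 ± 0.719 CPM in qKO and control larvae (log2 fold change 1.27, edgeR adjusted p = 0.00369; SD, n = 5 each). Within pools 1 and 2 nlgn3b, slc1a3a and slc1a7a changed by 0.35, -0.24 and 0.26 (log2, edgeR adjusted p = 0.0175, 0.143 and 0.406). Within pools 3 to 5 they changed by 0.36, -0.72 and 1.73 (log2, edgeR adjusted p = 0.00236, 2.44e-05 and 7.85e-06).

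Nicotinic acetylcholine receptor genes, channels of the same superfamily as the GABA-A and glycine receptors, were called in 3 of 18 cases (against 25.8% of all tested genes). The gene chrnb1l rose by 0.78 on the log2 scale (edgeR adjusted p = 0.0111), and chrna6 fell by 0.30 (edgeR adjusted p = 0.0249). The gene chrne, a subunit of the muscle receptor, fell by 0.25 (edgeR adjusted p = 0.0497). Within pools 1 and 2 chrnb1l, chrna6 and chrne changed by 0.64, -0.33 and -0.04 (log2, edgeR adjusted p = 0.245, 0.0929 and 0.835). Within pools 3 to 5 they changed by 0.82, -0.31 and -0.43 (log2, edgeR adjusted p = 0.0134, 0.014 and 0.00318). With library totals the calls of chrna6 and chrne were lost (edgeR adjusted p = 0.125 and 0.105), and with thinned libraries that of chrnb1l (edgeR adjusted p = 0.107). That of chrna6 was also lost without control pool 4 or 5 (edgeR adjusted p up to 0.0651), and that of chrne without any 1 of qKO pools 3 to 5 or control pools 3 to 5 (edgeR adjusted p up to 0.116). No receptor gene lay within 100 genes of a targeted gene in the reference gene order, and 1, grm3, lay on the same chromosome as smad3b and smad6b (log2 fold change 0.01).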

How the data were processed

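Whole-larva RNA of 10 pools went into TruSeq Stranded Total RNA libraries from 200 ng each, per the labels' protocols. The authors deposited a table of unnormalized read counts, with an Ensembl ID and a name for each gene. The submitters' processing notes name FastQC 0.11.9, Trim Galore 0.6.6, featureCounts, Subread 2.0.0, MultiQC 1.9 and the build GRCz11. The strand setting and the annotation release are not given in the sources used here, so overlapping and antisense genes remain uncertain and no coordinates are printed.

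Counts were fitted for all genes in R 4.3.3 with edgeR 4.0.16 (filterByExpr, TMM scaling, robust quasi-likelihood test, no covariates), with Benjamini-Hochberg adjustment and a threshold of 0.05. Levels are CPM scaled by TMM, not corrected for gene length. Ranks of genes by mean CPM served to choose genes to name and are not ranks of transcript number. Levels of different genes are not compared otherwise. A level of 3 counts stood for 0.0157 to 0.187 CPM. Standard errors were derived from the test statistic. Pools of 1 genotype had chi-square values per degree of freedom of 5.52 (control pools 1 and 2) to 133, above the noise of counting reads. All 10 libraries were treated as separate samples. These values cannot show that pools within a set are independent, because spread from library preparation enters them too. Alternatives were other scalings and filters, the replicate block, each pool set alone or summed, thinned libraries, each library left out, DESeq2 1.42.0, limma-voom (limma 3.58.1) and a surrogate variable (sva 3.50.0). On simulated counts with these library totals over 22894 genes, 91% of 100 genes changed by 1 and 40% of 100 changed by 0.5 (log2) were recovered, with 9 false calls. Unlike the data, the simulation held no pool sets and changed only those genes, so its rates need not hold for the data.

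The members, the pool sets and the lists were chosen with earlier results of these data known. Genes named were, per class, up to 4 called genes with the lowest p and the 2 with the highest mean CPM, all glycine receptor genes, those called in opposite directions in the sets, and up to 3 called genes per synapse list. The genes glrbb and slc1a3b and others named to compare copies, neighbours, rho subunits or single sets were chosen after their values were seen. Some genes that fall under this rule are not reported here. Neighbours were read from the RefSeq gene order of GRCz12tu, to which 64 of 65 genes matched by name.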

Additional observations from a re-analysis of the deposited data

Results flagged for a closer look

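In 5 of 146 sets of 5 pools (the 65 receptor genes and the class sums, each genotype apart) 1 pool stood far from the other 4, by a gap that filled most of the range. Chance gives about 1 in 20. Levels of gabra6b were 5.14 CPM in qKO pool 1 and 3.32 to 3.63 CPM in the other qKO pools. Levels of glra1 were 68.8 CPM in qKO pool 1 and 58.8 to 59.6 CPM in the others. Levels of gria4b were 51.6 CPM in qKO pool 2 and 62.9 to 67.6 CPM in the others, and those of grin2aa were 39.4 CPM in qKO pool 2 and 47.1 to 49.3 CPM in the others. Levels of glra2 were 6.45 CPM in control pool 4 and 5.21 to 5.46 CPM in the other controls.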

How the results depend on the processing

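The calls of gabra6b and glra4a held in 22 of 23 alternatives with the threshold kept at 0.05 and were lost only with the pool sets summed (adjusted p = 0.11 and 0.21, edgeR). Those of gabrd and grin2cb held in 21, gabrr3a in 20, grin1a in 19, grm6b in 17, grik5 in 14, grik1b in 13 and gabrb2a in 11. Counts of called genes, for all tested genes and for GABA-A, glycine and glutamate receptor genes, were 5910, 4, 1 and 5. They were 9551, 10, 3 and 11 in pools 3 to 5 alone. With the pool sets summed they were 700 (2.85% of the 24580 genes tested there), 0, 0 and 0 by edgeR. There 3 receptor genes had an unadjusted p under 0.05 by edgeR (gabrr1, glra4a and gabra6b), against 15.9% of all genes. DESeq2 called 1 receptor gene (gabra6b) and limma-voom 0, against 1260 and 836 of all genes. At an unadjusted p under 0.05 these tools had 4 and 6 receptor genes, against 15.2% and 17.6% of all. In pools 1 and 2 alone 1 GABA-A gene was called. With a threshold of 0.01 the counts were 2797 for all genes, 2 for GABA-A and 1 for glutamate. With 1 library left out they ranged from 4309 to 6363, 3 to 5, 1 to 2 and 2 to 5. The glycine count was 2 without qKO pool 1. The glutamate count was 3 without qKO pool 3, qKO pool 5 or control pool 4, and 2 without qKO pool 4 or control pool 5. The cause of these shifts was not tested, apart from the fewer samples or stricter threshold that the alternatives bring.

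The replicate number as a block gave 2 GABA-A and 3 glutamate calls, and those of gabrb2a, gabrr3a, grik1b and grin1a were lost. In the alternatives with no count given here the counts stayed within 1.5 times. Same-numbered pools did not deviate together (correlations from -0.146 to -0.000172), so the numbers were not taken to pair the pools. Pools of different number had correlations from -0.14 to 0.155, the highest for qKO pool 2 with control pool 5. The comparisons within sets nonetheless match pools 1 and 2, and pools 3 to 5, by number. Library totals moved the median log2 fold change of all genes to 0.11 from 0.03 with TMM, and the medians of GABA-A, glycine and glutamate genes to 0.11, 0.25 and 0.11. Upper-quartile scaling put these class medians at -0.01, 0.13 and -0.01 and the median of all genes at -0.01. The GABA-A and glutamate medians thus had no fixed sign, and the median of all genes moved with them. The share of receptor calls that were higher was 6 of 8 with library totals and 5 of 9 with the upper quartile. Within pools 3 to 5, library totals left 11 receptor genes below 0 in place of 23, an alternative chosen after the data were seen. The median of all genes moved there to 0.209, and 23 receptor genes lay below it, as with TMM.

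Some signs turned, among them those of gabrr3a and glra4b. Over all pools their log2 fold changes were 0.94 (called) and 0.40 (not called, edgeR adjusted p = 0.163). Library totals gave 0.014 for glra3, 0.045 for gria2b, 0.024 for grm2b and 0.028 for grin2db. For grin2db, limma-voom gave 0.45 and the replicate block 0.12. Upper-quartile scaling gave -0.013 for grid1a. Pools 1 and 2 alone gave -0.057 for gabrr3a, -0.18 for glra1, 0.14 for glra3, -0.10 for gria2a, -0.039 for grid1a, 0.0084 for grm2b and -0.29 for glra4b. Pools 3 to 5 alone gave 0.0083 for gria2b and 0.80 for grin2db. With 1 library left out, log2 fold changes ranged from -0.10 to 0.0025 for gria2b, from -0.027 to 0.065 for grid1a and from -0.246 to 0.32 for grin2db.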
